A study of Arabidopsis thaliana with 9 samples.

Results

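The AtSPP knockdown lines of Arabidopsis thaliana were compared with Col-0 across all probe sets of the Affymetrix ATH1 array that the platform annotation pairs with 1 gene. These were 13513 of the 22746 probe sets left after the control probe sets were removed, and they stood for 13356 genes. The comparison used 3 arrays of knockdown seedlings and 3 arrays of Col-0 seedlings, out of 9 arrays in the series. The other 3 arrays were of AtSPP-overexpressed seedlings, whose values are given beside some results.

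The knockdown lines were homozygous RNAi lines made in Col-0, with a fragment of AtSPP inserted in sense and antisense direction. The fragment was 600 bp long for replicate 1 and covered 1 catalytic aspartate codon. For replicates 2 and 3 it was 400 bp long and covered both catalytic aspartate codons. The AtSPP-overexpressed lines carried the full-length gene behind the CaMV 35S promoter, which is active in most plant cells. Col-0 was the untransformed parent, so no group carried an empty vector. All seedlings were 7 days old, were grown on medium with 0.8% agar and were taken whole, and the RNA of each sample came from 20 pooled plants. No source used here states whether each knockdown array came from a line of its own. The p-values thus reflect how far these samples spread, and that spread may be technical.

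Signal peptide peptidase is an aspartic protease that sits in the membrane of the endoplasmic reticulum (ER) and cuts within the plane of the membrane. Its substrates are signal peptides that stay in the membrane after signal peptidase has cut them from secreted proteins, and membrane proteins of the same orientation. In A. thaliana, plants without the enzyme cannot be recovered because pollen tubes fail to elongate.

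The deposited values were normalized by the authors with the distribution free weighted (DFW) method, which pulls the arrays together wherever a probe set differs little between them. The median standard deviation of a probe set was 2.90e-06 over the 3 knockdown arrays and 3.37e-06 over the 3 Col-0 arrays. Differences are therefore stated in DFW units, which cannot be turned into fold changes. They were read by its rank in size, by whether the 3 arrays of one group lay apart from the 3 of the other, and by the limma test over all 22746 probe sets. Differences are knockdown minus Col-0, with the standard error (SE) of that test. "Called" means an adjusted p under 0.05.

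AtSPP (AT2G03120), the target of the RNAi constructs, was lower on every knockdown array than on the lowest Col-0 array. It had a DFW signal of 7.923, 7.936 and 7.918 in knockdown replicates 1, 2 and 3, 8.187, 8.226 and 8.157 in the AtSPP-overexpressed replicates, and 7.961, 7.979 and 7.980 in the Col-0 replicates. The means were 7.926 ± 0.0096 in knockdown and 7.974 ± 0.011 in Col-0 (SD, n = 3 each). The groups did not overlap, and the gap between them was 0.0246. The difference of -0.0479 (SE 0.0170) was the 8th largest of 13513 but was not called (limma adjusted p = 0.125). That SE is pooled over all arrays of the series, the AtSPP-overexpressed ones included. For this gene those ranged from 8.157 to 8.226, wider than the knockdown or the Col-0 arrays. The difference was called with the 6 arrays of the comparison alone (adjusted p = 0.0303) and without AtSPP-overexpressed replicate 2 (adjusted p = 0.0379). It was not called in any other fit that left out 1 array. An exact two-sided permutation test of the 3 against 3 arrays gave p = 0.1, the smallest value that 20 groupings allow. The replicate with the 600 bp fragment lay between the 2 with the 400 bp fragment. No source used here tells whether the AtSPP probes fall inside the fragments.

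**Figure D1:**
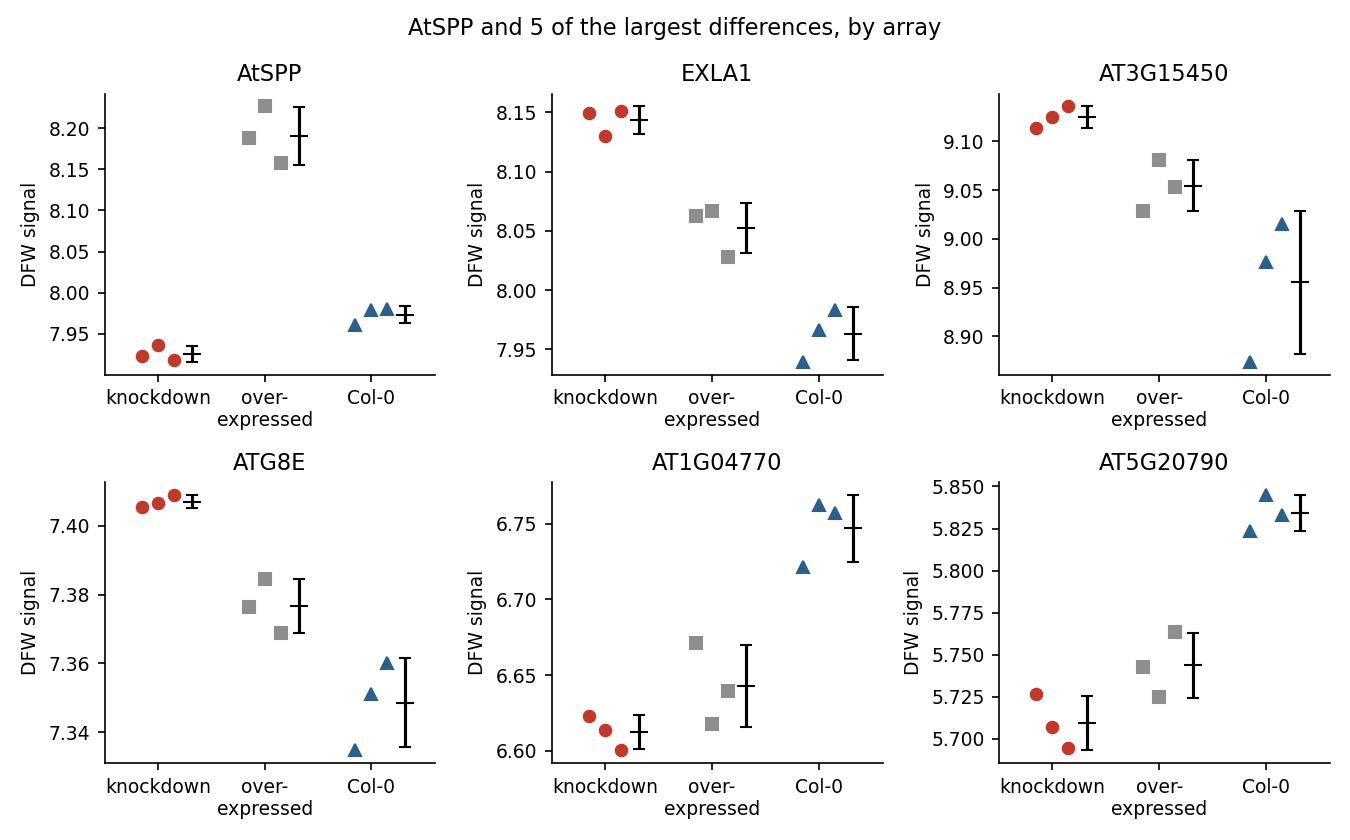
DFW signal (vertical axes, not starting at 0) of AtSPP and 5 genes with large differences on each of 3 knockdown arrays (circles), 3 AtSPP-overexpressed arrays (squares) and 3 Col-0 arrays (triangles), with the mean and SD of each group beside its points. The knockdown arrays lie apart from the Col-0 arrays in all 6 panels, and AtSPP differs by less than EXLA1, AT3G15450, AT1G04770 and AT5G20790.

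Across the 13513 probe sets, 757 were higher in knockdown (5.6%) and 793 were lower (5.87%) at a limma adjusted p under 0.05. In all 1550 called probe sets the 3 knockdown arrays also lay apart from the 3 Col-0 arrays. Without regard to the test, the arrays were apart in 1842 probe sets that were higher in knockdown (13.6%) and in 2263 that were lower (16.7%). For 5 arrays, leaving out that array lowered the count markedly in at least 1 direction. They were 368 higher and 377 lower without knockdown replicate 3, 477 and 507 without knockdown replicate 1, and 508 and 441 without knockdown replicate 2. They were 454 higher and 476 lower without Col-0 replicate 1, and 468 and 446 without Col-0 replicate 2. Centring each array on its own median moved the median difference to -5.52e-04 and turned the split into 175 higher and 13152 lower. The median difference of the deposited values was -2.71e-07. Centring each array on its median deviation from the probe set means, a setting not planned beforehand, left 784 higher and 788 lower.

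The sizes of these differences were very uneven. The median size over all probe sets was 3.07e-06, the median of the called increases was 1.47e-04 and that of the called decreases was -8.32e-05. A size of at least 0.001 was reached by 271 probe sets (2.01%), split into 172 increases and 99 decreases. Of these, 148 increases and 63 decreases were called. Among the called, 66 increases (44.6%) and 35 decreases (55.6%) were also called against the AtSPP-overexpressed arrays. The AtSPP-overexpressed mean lay between the Col-0 and knockdown means in 137 increases (92.6%) and 58 decreases (92.1%). The probe sets were chosen by knockdown against Col-0, and both groups were set against the same Col-0 arrays. The position of the mean alone therefore does not show that a shift was shared with the AtSPP-overexpressed lines. A size of at least 0.01 was reached by 27 increases, all of them called, and by 10 decreases, of which 4 were called. The upper end thus held more called increases than called decreases, while the totals of called probe sets were close.

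**Figure D2:**
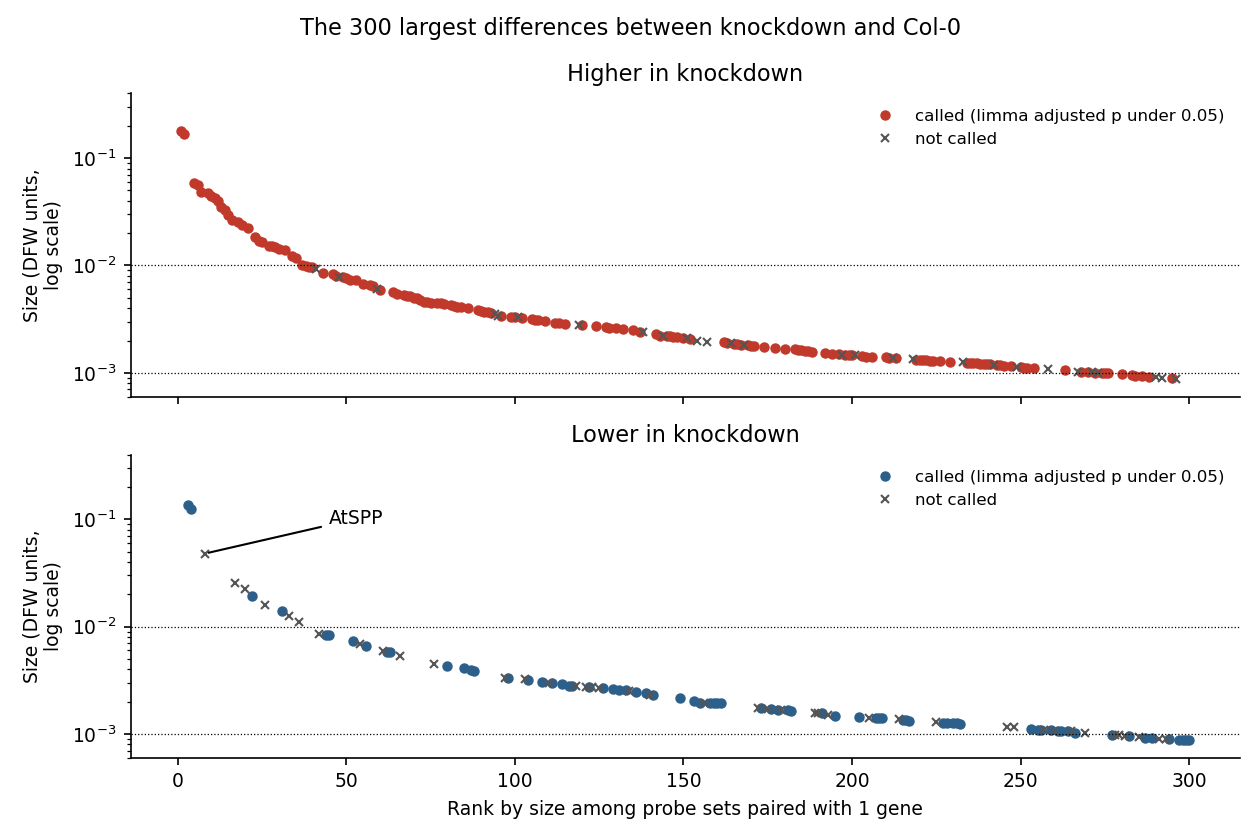
Size of the difference in DFW units (vertical axis, log scale) against its rank among the 13513 probe sets for the 300 largest, with increases above and decreases below. Filled points are called and crosses are not; dotted lines mark 0.001 and 0.01. Above 0.01 all 27 increases are called, and of the 10 decreases 4 are called and 6, AtSPP among them, are not.

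Calls were rare at low signal. Among the 3379 probe sets with the lowest mean signal, 0.148% were called higher and 0.178% lower, and among the 3378 with the highest 10.7% were called higher and 12.3% lower. Sizes of at least 0.001 were found in 0.0592% of the dimmest and in 5.0% of the brightest of these sets. The files hold no background or detection call, and precision is limited by the number of arrays.

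The largest difference was an increase of EXLA1 (AT3G45970), an expansin-like gene of the plant cell wall. Its signal was 8.149, 8.130 and 8.151 in the knockdown replicates and 7.940, 7.967 and 7.983 in the Col-0 replicates. All knockdown arrays were well above all Col-0 arrays, with a difference of 0.180 (SE 0.0148, limma adjusted p = 0.00156). In the AtSPP-overexpressed lines, which are set against the same Col-0 arrays, EXLA1 differed by 0.0891 (adjusted p = 0.0706). AT3G15450, a locus with no gene name in the annotation used here, came next, with 9.114, 9.125 and 9.136 in knockdown and 8.874, 8.977 and 9.016 in Col-0. Its Col-0 arrays spread far more (SD 0.0732) than its knockdown arrays (SD 0.0110), and the lowest value was that of Col-0 replicate 1. Its difference of 0.170 (SE 0.0353, adjusted p = 0.0257) had an adjusted p from 0.0182 to 0.0865 when 1 array was left out, and was not called in 4 of 9 such fits.

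Among the 15 largest increases, the other genes with a gene name were ATG8E, MCCA and AKINBETA1, at ranks 5, 10 and 11 by size. ATG8E (AT2G45170) encodes a ubiquitin-like protein that is attached to autophagosome membranes. Its signal was 7.405, 7.407 and 7.409 in knockdown and 7.335, 7.351 and 7.360 in Col-0, and the groups did not overlap (difference 0.0585, SE 0.00683, limma adjusted p = 0.00389). MCCA (AT1G03090), the biotin-carrying subunit of methylcrotonyl-CoA carboxylase in leucine breakdown, had 6.960, 6.959 and 6.963 in knockdown and 6.910, 6.917 and 6.921 in Col-0. It rose by 0.0448 (SE 0.00336, adjusted p = 0.00118). AKINBETA1 (AT5G21170) encodes a beta subunit of SnRK1, the kinase that is active when energy is short. Its signal was 7.026, 7.030 and 7.040 in knockdown and 6.984, 6.988 and 6.996 in Col-0, a difference of 0.0429 (SE 0.00525, adjusted p = 0.00448) in which knockdown replicate 3 was the highest array.

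The other increases among the 15 largest were of loci without a gene name, 3 of which exceeded MCCA and AKINBETA1 in size. AT3G59350, AT2G05540, AT2G15960, AT1G62510, AT2G25200 and AT2G32150 rose by 0.0563, 0.0480, 0.0474, 0.0397, 0.0347 and 0.0331 DFW units, and each was called in every fit that left out 1 array. AT1G62510 had 6.886, 6.882 and 6.888 in knockdown, 6.846, 6.852 and 6.848 in the AtSPP-overexpressed lines and 6.847, 6.848 and 6.842 in Col-0. Here the knockdown arrays were apart from both other groups, and it was called against both (adjusted p = 6.63e-04 against Col-0 and 0.00176 against the AtSPP-overexpressed lines). AT1G22890, AT1G54740, AT2G20670 and AT1G19530 closed the list with differences of 0.0295, 0.0253, 0.0268 and 0.0240. AT2G20670 and AT1G19530 were not called in 7 and 5 of the 9 fits that left out 1 array.

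The 2 largest decreases stood apart from the other decreases. AT1G04770, a locus of the glucosinolate and sulfur list, had 6.623, 6.614 and 6.600 in knockdown and 6.722, 6.763 and 6.757 in Col-0. It fell by 0.135 (SE 0.0165, limma adjusted p = 0.00446), and no knockdown array reached a Col-0 array. AT5G20790, which has no gene name here, had 5.726, 5.707 and 5.695 in knockdown and 5.824, 5.845 and 5.833 in Col-0. It fell by 0.125 (SE 0.0123, adjusted p = 0.00243). In the AtSPP-overexpressed lines the differences of AT1G04770 and AT5G20790 from the same Col-0 arrays were -0.104 (adjusted p = 0.0636) and -0.0901 (adjusted p = 0.0450).

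The next called decreases were much smaller. AT1G06000, a flavonol rhamnosyltransferase gene, had 6.829, 6.830 and 6.828 in knockdown and 6.850, 6.848 and 6.846 in Col-0, a difference of -0.0192 (SE 0.00157, limma adjusted p = 0.00155). ORA47 (AT1G74930), an AP2/ERF transcription factor of the jasmonate response, had 6.170, 6.168 and 6.171 in knockdown and 6.185, 6.183 and 6.184 in Col-0 (difference -0.0141, adjusted p = 0.0133). In both genes each group was tight and the groups were apart. Then followed AT1G72920, AT3G09440, AT1G60590 and AT1G23205, with differences of -0.00843, -0.00839, -0.00736 and -0.00666. These loci have no gene name in the annotation used here, and AT3G09440 is a member of the heat shock list below. GTR1 (AT3G47960), a glucosinolate transporter, differed by -0.00577, and AT1G78020, UGT78D1, AT5G55620, AT3G44450, UGT71B1 and AT3G02910 differed by -0.00575, -0.00432, -0.00411, -0.00396, -0.00390 and -0.00334. All 15 decreases were called in each of the 9 fits that left out 1 array, with adjusted p-values up to 0.0473.

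**Figure D3:**
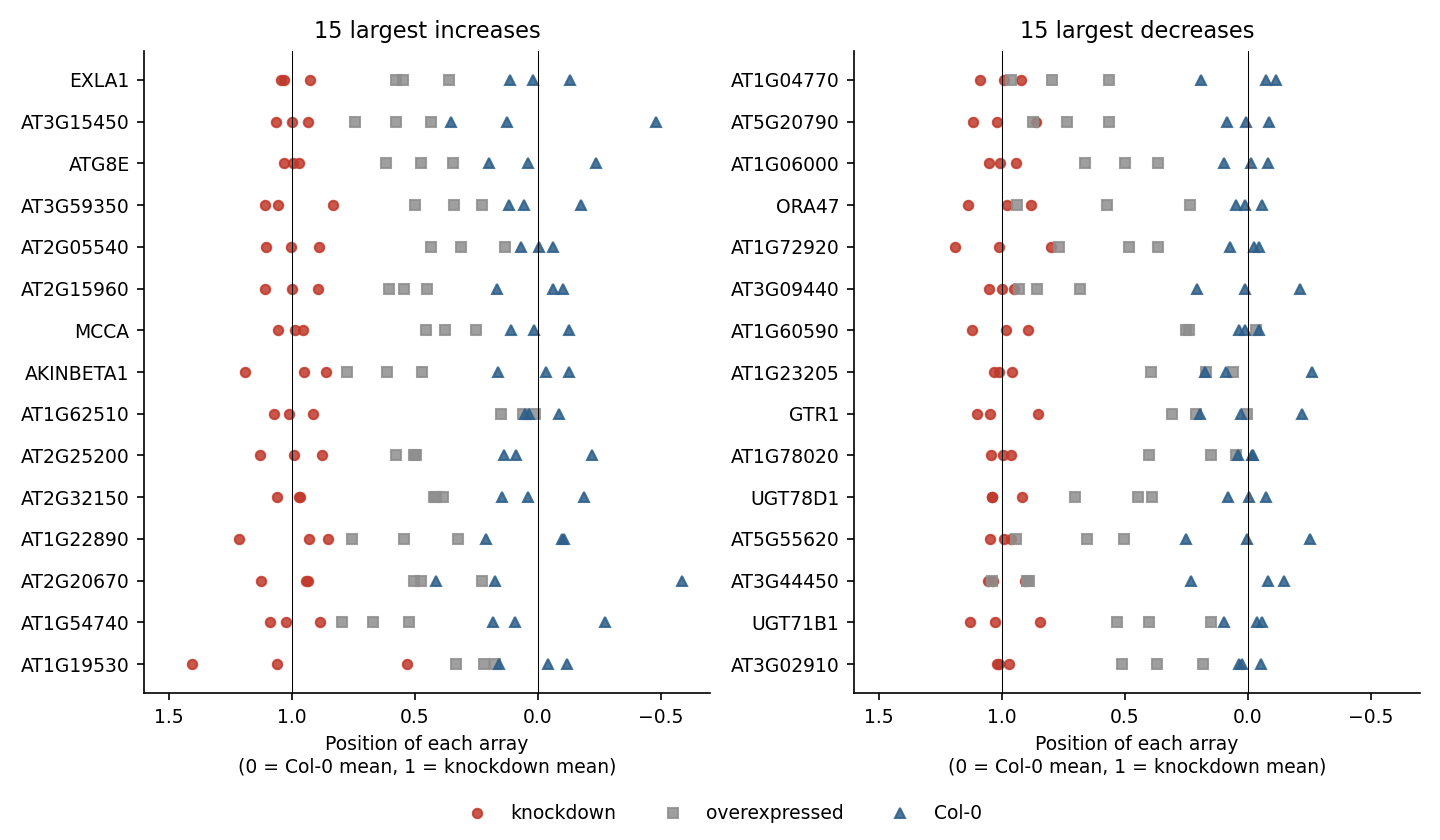
Position of every array between the Col-0 mean (0) and the knockdown mean (1) of a gene (horizontal axis, running from high to low) for the 15 largest called increases and the 15 largest called decreases; circles are knockdown, squares AtSPP-overexpressed and triangles Col-0 arrays. The knockdown circles lie apart from the Col-0 triangles in every row, as the choice of genes requires, and the spread within a group varies widely between genes. Most AtSPP-overexpressed squares lie between the Col-0 and knockdown means.

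Of the 20 largest differences by size, 3 were not called, all of them decreases. Besides AtSPP these were AT1G54050, with 6.745, 6.703 and 6.733 in knockdown and 6.799, 6.739 and 6.719 in Col-0, and AT4G27657, with 6.498, 6.481 and 6.509 in knockdown and 6.526, 6.510 and 6.518 in Col-0. The arrays of AT1G54050 overlapped (difference -0.0255, SE 0.0301, limma adjusted p = 0.689). Those of AT4G27657 were apart by 0.00108 (difference -0.0223, SE 0.0146, adjusted p = 0.413).

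The spread of the arrays was not the same within the groups. Among the 211 called probe sets with a size of at least 0.001, knockdown replicate 3 was the array farthest from the Col-0 mean in 114 (54.0%), replicate 1 in 55 (26.1%) and replicate 2 in 42 (19.9%). Col-0 replicate 1 was the array farthest from the knockdown mean in 133 (63.0%), replicate 2 in 52 (24.6%) and replicate 3 in 26 (12.3%). When each of the 9 arrays was left out in turn, 165 of the 211 (113 higher and 52 lower) were called in the same direction every time. The lowest number in a single such fit was also 165, without knockdown replicate 3. After quantile normalization, 186 of the 211 were called in the same direction. Rank products called all 211 in the same direction. They rank the same differences by size, so the choice of large sizes nearly fixed that outcome, and it adds no separate support.

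The 2 RNAi fragments were compared within the knockdown arrays, with the 600 bp fragment on 1 array and the 400 bp fragment on 2, so that the single array was assumed to vary like the other groups. At a limma adjusted p under 0.05, 0.0% of the 13513 probe sets were higher and 0.0% were lower with the 600 bp fragment. At an unadjusted p under 0.05 there were 515 of the 13513, a share below 0.05. For AtSPP the 600 bp array differed from the mean of the 400 bp arrays by -0.00456. AT5G20790 differed by 0.0257 and AT1G04770 by 0.0159 between the fragments, and EXLA1 by 0.00902, with adjusted p-values near 1. Whether the fragments act alike is not shown by this, since 1 array stands for one of them, and quantile normalization gave 314 called probe sets.

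Genes of low sugar, amino acid breakdown and autophagy were mostly higher in knockdown. This list held 35 genes, of which 14 were measured, that is, had a probe set paired with 1 gene. Members without such a probe set were not read, here or in the lists below. Of the 14 measured genes, 10 were called higher and 0 lower, and the knockdown arrays lay above the Col-0 arrays in all 14. The median difference was 9.97e-04, against -2.75e-07 over all 13356 measured genes, of which 752 were called higher (5.63%) and 790 lower (5.91%). This list, like those below, was chosen with earlier results of these data known. Its share of called genes is therefore a description and not independent support. From 9 to 11 genes were called higher when 1 array was left out. Quantile normalization gave 6 higher and 2 lower, and centring on the array medians gave 8 higher and 6 lower. The RNA came from whole seedlings, in which a change in the number of cells of a type and a change in RNA per cell cannot be told apart.

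Within this list, leucine breakdown was represented by IVD (AT3G45300), the isovaleryl-CoA dehydrogenase, by both carboxylase subunits and by ETFQO (AT2G43400), which passes the electrons to ubiquinone. IVD had 6.9166 in each of the 3 knockdown arrays and 6.9127, 6.9130 and 6.9131 in Col-0, a difference of 0.00366 (SE 3.32e-04, limma adjusted p = 0.00194). MCCB (AT4G34030), the other carboxylase subunit, rose by 8.92e-04 (adjusted p = 0.00114) and ETFQO by 0.00110 (adjusted p = 0.00448). So all 4 genes were higher, MCCA by far the most. Of the ATG8 family, ATG8F (AT4G16520) had 9.1781, 9.1783 and 9.1783 in knockdown and 9.1769, 9.1769 and 9.1770 in Col-0 (difference 0.00130, adjusted p = 0.00105). APG8H and APG8A rose by 2.32e-04 and 6.84e-05, and 3 further ATG8 genes (ATG8B, ATG8G and ATG8H) had differences of at most 2.65e-05 that were not called. GAT1_2.1 (AT1G15040), a glutamine amidotransferase-like gene, had 6.4606, 6.4600 and 6.4610 in knockdown and 6.4560, 6.4560 and 6.4566 in Col-0, a difference of 0.00431 (SE 2.82e-04, adjusted p = 9.05e-04). A second, dimmer probe set of this gene, at 5.4988 on all 9 arrays, differed by 1.38e-06 and was not called (adjusted p = 0.318).

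Expansins and xyloglucan endotransglucosylases loosen and remodel the cell wall during growth. Of 29 measured genes 6 were called higher (20.7%, against 5.63% of all measured genes) and 3 lower (10.3%, against 5.91%). The median difference was -2.58e-06, close to 0 as for all genes. The increases were EXLA1, EXLA2, EXGT-A3, XTH16, XTH18 and XTH33. EXLA2 (AT4G38400), a close relative of EXLA1, had 6.6535, 6.6511 and 6.6514 in knockdown and 6.6439, 6.6447 and 6.6440 in Col-0 (difference 0.00776, SE 6.68e-04, limma adjusted p = 0.00168). EXGT-A3 (AT2G01850), a xyloglucan endotransglucosylase, rose by 0.00398 (adjusted p = 0.00163) and XTH16 by 0.00173 (adjusted p = 0.0112). EXLA1 and EXLA2 rose, while EXLA3, the other expansin-like A gene measured, differed by -1.80e-04 with overlapping arrays (adjusted p = 0.405). XTH18 rose by 0.00133 (adjusted p = 0.0386) but was not called in 6 of the 9 fits that left out 1 array. The alpha-expansins EXPA8 (difference -0.00169, adjusted p = 0.00363) and EXPA15 (difference -1.60e-04, adjusted p = 0.0187) fell. The third decrease was that of XTH32 (-3.84e-04, adjusted p = 0.00163). After centring on the array medians, 5 of the 29 were called higher and 24 lower.

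Genes of glucosinolate synthesis, transport and sulfur supply were mostly lower in knockdown. Glucosinolates are the sulfur-rich defence compounds of the cabbage family. Of 7 measured genes 5 were called lower and 0 higher, the arrays were apart in 6, and the median difference was -0.00246. The count was from 3 to 6 when 1 array was left out, with the lowest without knockdown replicate 3. Besides AT1G04770, these were GTR1, AT2G31790, UGT74B1 and BCAT4. GTR1 had 7.2154, 7.2140 and 7.2143 in knockdown, 7.2203, 7.2186 and 7.2191 in the AtSPP-overexpressed lines and 7.2192, 7.2202 and 7.2216 in Col-0. Its knockdown arrays lay below both other groups. UGT74B1 (AT1G24100), the glucosyltransferase of the glucosinolate core, fell by 0.00246 (SE 4.75e-04, limma adjusted p = 0.0198), and was not called in 5 of the 9 fits that left out 1 array. BCAT4 (AT3G19710), which starts the methionine chain elongation, fell by 3.51e-04 (adjusted p = 0.0188). GTR2, the other transporter, had a difference of -4.19e-05 that was not called (adjusted p = 0.0772).

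Genes of the flavonoid pathway were lower as well. Of 7 measured genes 6 were called lower and 0 higher, and the median difference was -8.94e-04. Leaving out 1 array gave from 3 to 6 called genes, the lowest without knockdown replicate 2. UGT78D1 (AT1G30530), which adds rhamnose to flavonols, had 7.0834, 7.0828 and 7.0828 in knockdown and 7.0876, 7.0874 and 7.0870 in Col-0 (difference -0.00432, SE 3.81e-04, limma adjusted p = 0.00180). UGT78D2 (AT5G17050), which adds glucose to flavonols and anthocyanidins, fell by 0.00215 (adjusted p = 0.0167). DFR (AT5G42800), the dihydroflavonol reductase at the entry to the anthocyanins, fell by 8.94e-04 (adjusted p = 0.0432) but was not called in 8 of the 9 fits that left out 1 array. The anthocyanin glycosyltransferase gene UF3GT (AT5G54060) fell by 2.96e-04 (adjusted p = 0.00810), and AT4G14090 by 1.56e-04.

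UDP-glycosyltransferases attach sugars to small molecules, and several of the genes above belong to this family. Of 51 measured members 11 were called lower (21.6%, against 5.91% of all measured genes) and 1 higher (UGT85A4, 1.96% against 5.63%). The median difference was -8.87e-08. The knockdown arrays lay above the Col-0 arrays in 13 members and below them in 15. The number called lower fell to 5 without knockdown replicate 3, and after centring on the array medians 50 were lower. Outside the glucosinolate and flavonoid lists the largest decrease was that of UGT71B1 (AT3G21750), with 6.7919, 6.7912 and 6.7908 in knockdown and 6.7954, 6.7953 and 6.7948 in Col-0 (difference -0.00390, limma adjusted p = 0.00377).

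**Figure D4:**
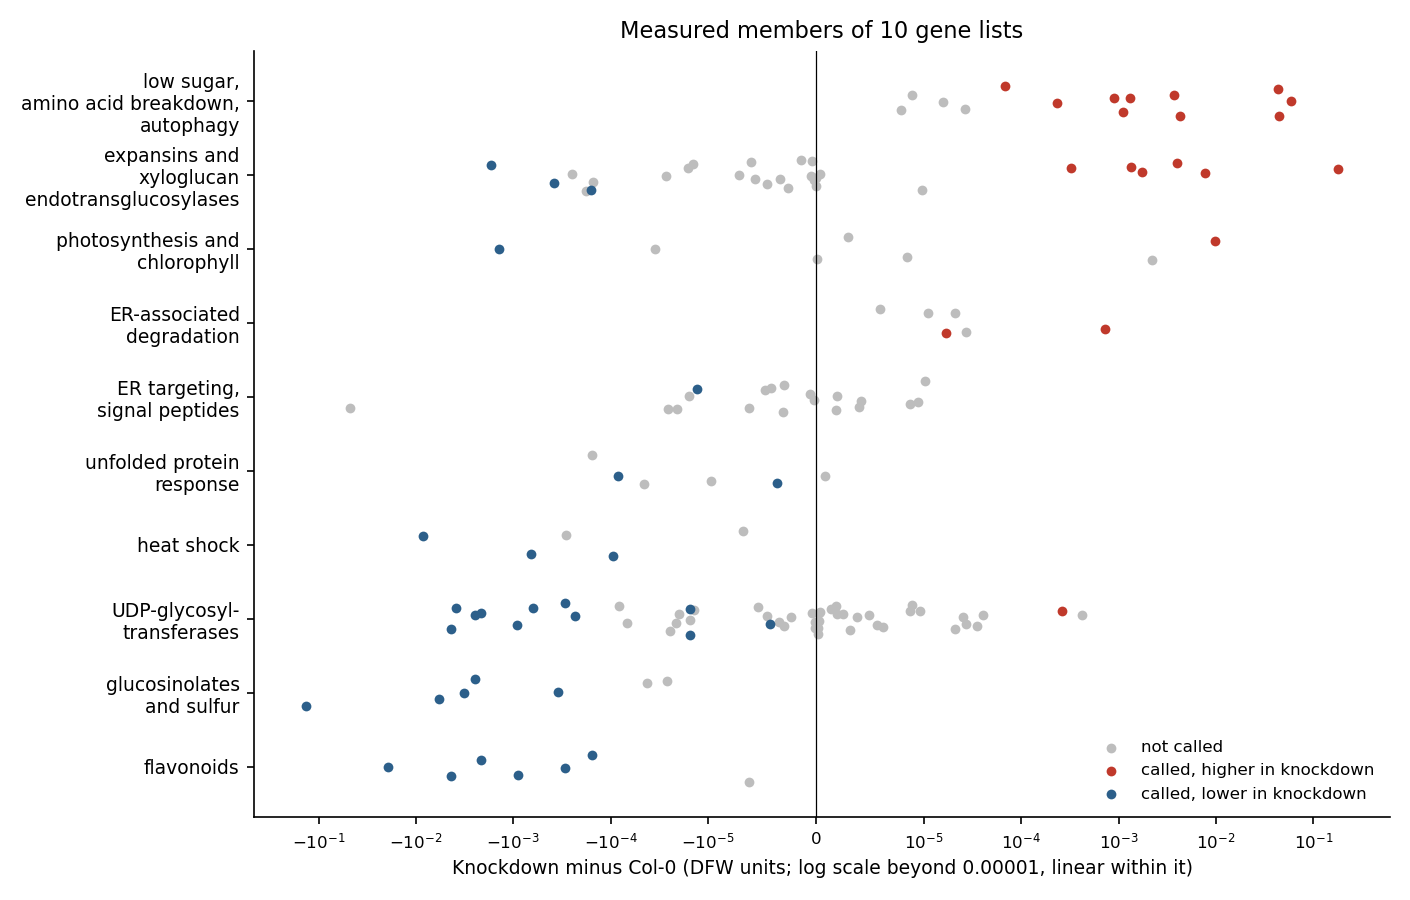
Difference between knockdown and Col-0 in DFW units (horizontal axis, log scale on both sides and linear near 0) for each measured gene of 10 lists; red points were called higher in knockdown, blue points lower and grey points were not called. The 14 low-sugar genes all lie above 0 and the 7 glucosinolate and the 7 flavonoid genes all lie below 0 in the deposited values; after centring on array medians 6 of the 14 low-sugar genes were called lower.

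The ER genes closest to the enzyme itself differed little. Of 19 measured genes of ER targeting and signal peptide processing, AtSPP had by far the largest difference, and the next largest was -2.59e-05, for AT3G20920 (adjusted p = 0.669). AT1G29310 alone was called lower, which is 5.26% of the 19, near the 5.91% of all measured genes. Its difference was -1.29e-05 (limma adjusted p = 0.0321), and it was not called in 5 of the 9 fits that left out 1 array. Over all measured genes 5.63% were called higher, a share that the next list, of 6 measured genes, is too small to be set against. Of these 6 genes of ER-associated degradation, by which misfolded proteins leave the ER, 2 were called higher. These were DER2.1 (AT4G21810), a derlin of the ER membrane, with a difference of 7.18e-04 (adjusted p = 0.0346), and UBC32 (AT3G17000), a ubiquitin-conjugating enzyme, with 1.67e-05 (adjusted p = 0.0379). After quantile normalization 0 of the 6 were called higher and 2 lower, and after centring on the array medians 5 were lower. DER2.1 was not called in 5 and UBC32 in 7 of the 9 fits that left out 1 array.

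The unfolded protein response raises ER chaperones when misfolded proteins accumulate. Of its 28 listed genes 6 were measured, of which 2 were called lower and 0 higher, with a median difference of -2.75e-05. Over all measured genes 5.91% were called lower, and 6 genes are too few to set against that share. The number called lower was 1 with the 6 arrays alone and 0 without knockdown replicate 2. ATERDJ3B (AT3G62600), a co-chaperone of the ER lumen, fell by 8.48e-05 (limma adjusted p = 0.0162). BZIP17 (AT2G40950), a stress transcription factor held in the ER membrane, fell by 3.59e-06 (adjusted p = 0.0297), one of the smallest differences that were called. BZIP17 was not called in 6 and ATERDJ3B in 2 of the 9 fits that left out 1 array. The 2 other bZIP sensors of ER stress, BZIP60 and BZIP28, had differences of -4.53e-05 (adjusted p = 0.960) and 8.19e-07 (adjusted p = 0.943). Of 5 measured genes of the heat shock list 3 were called lower, against a share of 5.91% over all measured genes. They were AT3G09440, with 8.5466, 8.5470 and 8.5461 in knockdown and 8.5568, 8.5549 and 8.5532 in Col-0 (difference -0.00839, adjusted p = 0.00356), Hsp70-2 (AT5G02490), a cytosolic chaperone, with -6.60e-04, and BOB1 (AT5G53400), a small chaperone, with -9.36e-05. Cytosolic HSP70 genes are near-identical copies, so the values of single members are uncertain.

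Photosynthesis genes did not move one way. Of 7 measured genes, LHCB4.2 (AT3G08940), an antenna protein of photosystem II, was called higher and its relative LHCB4.3 (AT2G40100) lower. LHCB4.2 had 10.2938, 10.2943 and 10.2956 in knockdown, 10.2829, 10.2816 and 10.2846 in the AtSPP-overexpressed lines and 10.2847, 10.2851 and 10.2844 in Col-0, a difference of 0.00982 (SE 7.91e-04, limma adjusted p = 0.00144). LHCB4.3 had 7.3836, 7.3838 and 7.3838 in knockdown and 7.3852, 7.3850 and 7.3852 in Col-0, a difference of -0.00140 (adjusted p = 0.00338). PORB (AT4G27440), an enzyme of chlorophyll synthesis, differed by 0.00220 and missed the threshold (adjusted p = 0.0502). The summed signal of the 7 genes was 75.1713 to 75.1749 in knockdown and 75.1616 to 75.1633 in Col-0, without overlap, and LHCB4.2 alone made up nearly all of that difference.

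**Figure D5:**
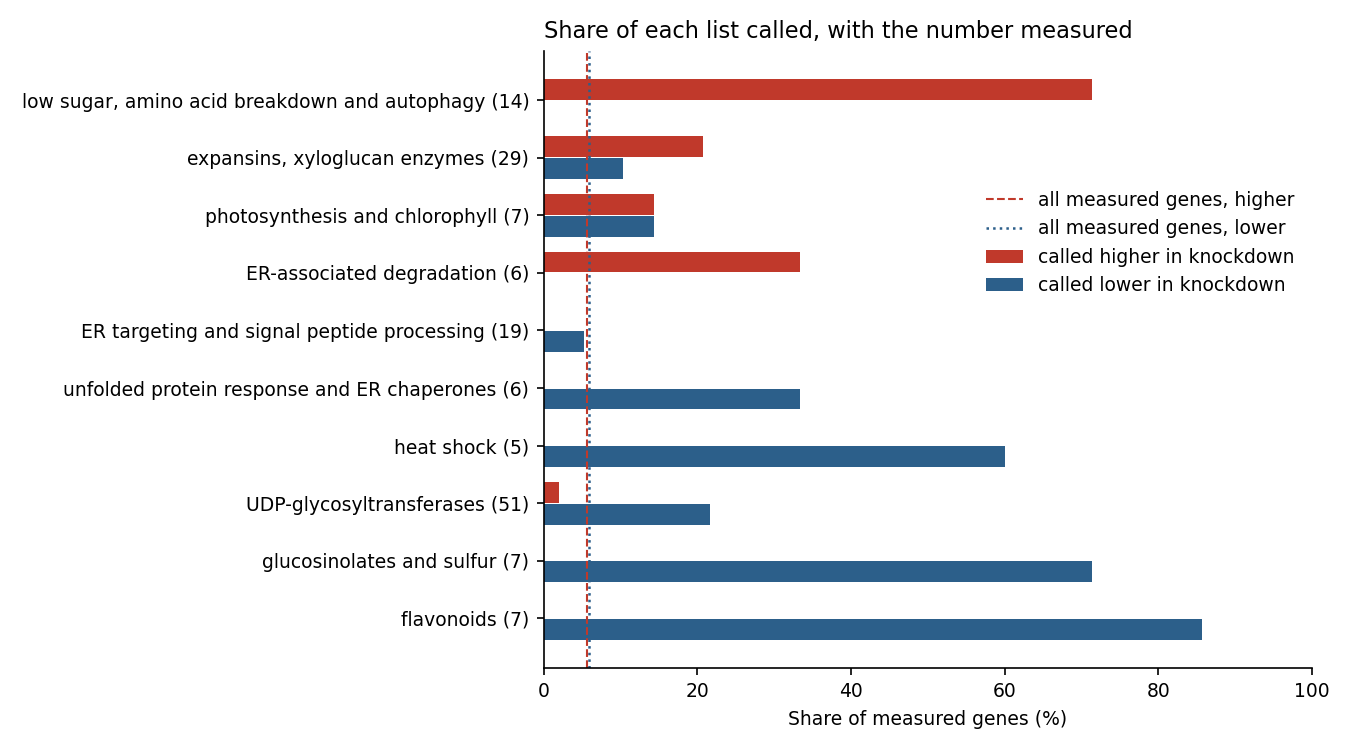
Share of the measured genes of 10 lists that were called higher (red bars) or lower (blue bars) in knockdown, with the number of measured genes in brackets; the dashed and the dotted line mark the shares over all 13356 measured genes, 5.63% higher and 5.91% lower. The share called higher is 71.4% in the low-sugar list and the shares called lower are 71.4% and 85.7% in the glucosinolate and flavonoid lists, each of which has at most 14 measured genes. The lists were chosen with earlier results of these data known, so the shares are not independent support. The shares are of the deposited values, and after centring on array medians 6 of the 14 low-sugar genes were called lower.

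The secreted proteins that the study weighed as candidate substrates were also read. Over all measured genes 5.63% were called higher and 5.91% lower, and the pollen and root lists are too small to set against those shares. Of 13 candidates from pollen 6 were measured, and 1 was called lower, AT5G21100 (difference -5.64e-04, limma adjusted p = 0.0393). Of 9 candidates from root 2 were measured, and 0 were called. The larger of these, AT4G33720, had overlapping arrays (difference -0.00108, adjusted p = 0.564). The lists came from the study, and AT5G21100 was not called in 6 of the 9 fits that left out 1 array.

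Other hormone and stress lists held few measured genes. Over all measured genes 5.63% were called higher and 5.91% lower, and these lists were too small to set against those shares. Of auxin genes 1 of 6 was higher, GH3.3 (AT2G23170), an auxin-conjugating enzyme (3.22e-04, limma adjusted p = 0.00242). Of abscisic acid, cold and drought genes 1 of 5 was higher, the dehydrin COR47 (3.72e-04, adjusted p = 0.0339), while COR15B differed by -0.00695 (adjusted p = 0.203). COR47 was not called after quantile normalization, with the 6 arrays alone or in 7 of the 9 fits that left out 1 array. Of RNA silencing genes 1 of 2 was lower, AGO7 (AT1G69440), an Argonaute protein of small RNA pathways (-2.16e-04, adjusted p = 0.00492). AGO7 was not called after quantile normalization (adjusted p = 0.341), which instead gave 1 gene of this list as higher. GH3.3 and COR47 turned lower after centring on the array medians. No member of the defence and jasmonate list (3 measured), the iron list (3 measured) or the circadian list (GI alone) was called by limma. In these lists the differences were largest for WRKY53 (-0.0125, adjusted p = 0.253), AT3G13610 (-3.30e-04, adjusted p = 0.107) and GI (-6.38e-04, adjusted p = 0.418). The lists do not hold every such gene. ORA47, named above as a jasmonate response gene, is outside them and was called lower (-0.0141, limma adjusted p = 0.0133). Also outside them, bHLH121 (0.00453, limma adjusted p = 0.00112) and COR27 (0.00278, limma adjusted p = 0.0148) were called higher. COR27 was not called in 1 of the 9 fits that left out 1 array. The phosphate and nitrogen lists had no measured member here.

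Markers of single tissues showed no called difference. The root gene PYK10 (difference 1.06e-06, limma adjusted p = 0.938), the root hair gene EXPA18 (-1.41e-05, adjusted p = 0.558), the shoot meristem gene CLV3 (-9.13e-06, adjusted p = 0.672) and the stomatal gene MUTE (-1.14e-06, adjusted p = 0.671) had the largest differences of their lists, which held from 1 to 2 measured genes each. The summed signal of the 2 root hair genes was 12.76296 to 12.76299 in knockdown and 12.76296 to 12.76302 in Col-0. Lists for seed storage, pollen, flower, phloem and xylem had no measured gene, so the part of those tissues in the results was not tested. PYK10 was at 11.769 on the 6 arrays, and the antenna gene LHCB4.2 was above 10.28, so root and leaf genes both gave high values, although DFW values carry no detection call. The 69 plastid-encoded genes held no called difference, had a median difference of 7.41e-05 and lay higher in knockdown without overlap in 11 of the 69, near the 13.6% of all probe sets. They lay lower without overlap in 0 of the 69, against 16.7% of all probe sets. Their summed signal was 616.180 to 616.214 in knockdown and 616.170 to 616.193 in Col-0, and the part of plastid RNA in the results was not tested.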

How the data were processed

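Whole seedlings were hybridised to Affymetrix ATH1 arrays, 1 array per sample. The deposited values are on a log2 scale as far as their range shows; the authors made them in R with the DFW method, and neither the log base nor a package version is given in the sources used here. DFW weights each probe set by its variation across arrays, which compresses small differences.

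The 22746 probe sets that are not controls were fitted in R 4.3.3 with limma 3.58.1 (lmFit, contrasts.fit and eBayes) on all 9 arrays in 1 fit with 6 residual degrees of freedom. All tests were two-sided, with Benjamini-Hochberg adjustment over all 22746. Counts are of the 13513 probe sets that the platform annotation pairs with 1 gene; 503 were paired with several genes and 8730 are not listed there. List counts are of genes, and most lists were measured only in part. The listed genes numbered 36 for glucosinolates and sulfur, 27 for flavonoids, 46 for photosynthesis and 34 for ER targeting. They numbered 12 for ER-associated degradation, 28 for the unfolded protein response and 20 for heat shock. The scripts were tested on simulated data.

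Genes named are AtSPP, the 15 largest called and separated differences in each direction, the 20 largest whatever the test, and up to 4 called members of each list, or its largest member where none was called. Further genes of the lists and annotated genes called at 0.001 or more were chosen after their values were seen. The members and lists were chosen with earlier results of these data known. Replicates are separate samples by their labels, and at most 7 values were identical between 2 arrays. Other normalizations, centrings, filters, fits, rank products (100 permutations) and the omission of each array were tried.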

Additional observations from a re-analysis of the deposited data

How the results depend on the processing

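The counts of probe sets called against Col-0 depended on the scaling. Against 757 higher and 793 lower, quantile normalization gave 1683 higher and 2183 lower (254 and 362 of the main calls among them), centring on array medians 175 and 13152, and rank products 257 and 215. Centring on the median deviation from the probe set means, which was not planned beforehand, gave 784 and 788, with 755 and 781 of the main calls among them. Leaving out 1 array gave 368 to 715 higher and 377 to 762 lower. Separated probe sets numbered 13318 after centring on array medians and 2714 with the dimmer probe sets left out, against 4105. The fragment comparison, with 0 called, gave 314 after quantile normalization. AtSPP stayed lower in each setting and passed the threshold with array medians centred (-0.0484, adjusted p = 0.00443), with the 6 arrays alone and by rank products (-0.0479 in both), and its difference was -0.0541 to -0.0440 when 1 array was left out, with adjusted p from 0.0379 to 0.291.

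Some small differences changed sign. Under quantile normalization these were UBC32 (-6.19e-05), AT4G30170 (-4.19e-04), EXPA18 (1.26e-04), MUTE (9.95e-05) and cox1 (1.81e-04). With array medians centred they were UBC32 (-5.35e-04), AT4G30170 (-3.26e-04), COR47 (-1.81e-04), GH3.3 (-2.30e-04), PYK10 (-5.51e-04) and CYP71B22 (-3.08e-04). PYK10 also turned with array weights (-3.85e-07) and without knockdown replicate 2 (-1.38e-06), Col-0 replicate 1 (-2.55e-06) or Col-0 replicate 2 (-2.53e-07), within a range of -2.55e-06 to 6.00e-06 over the 9 omissions. cox1 turned without Col-0 replicate 1 (1.41e-04), within -2.71e-04 to 1.41e-04. Apart from the construction of each setting, the cause was not tested.

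With the replicate number as a block, 561 were higher and 608 lower, and AtSPP had an adjusted p of 0.123. Same-numbered arrays correlated at -0.0992, -0.147 and 0.130, and only knockdown replicate 3 correlated best with its own number. These weak correlations showed no pairing by number, and whether same-numbered samples shared a batch or day was not tested.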

Other observations

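Further annotated genes were called at a size of 0.001 or more and were chosen here after their values were seen. Among genes of growth and the cell wall, EXO (AT4G08950), which is linked to brassinosteroid-dependent growth, had 9.026, 9.019 and 9.018 in knockdown and 9.004, 9.009 and 9.004 in Col-0 (difference 0.0153, limma adjusted p = 0.0103). THE1, a receptor kinase that monitors the cell wall, rose by 0.00370, and RALFL22, a small secreted peptide, rose by 0.00145 but was not called in 6 of the 9 fits that left out 1 array. GH9C2, a glycosyl hydrolase of the cellulase family, fell by 0.00266. Among genes of carbon use, the triacylglycerol lipase SDP1 rose by 0.00593 and PPDK, pyruvate orthophosphate dikinase, by 0.00125, while ATSPS4F, a sucrose-phosphate synthase, fell by 0.00193.

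Of the larger enzyme families, 1 of 22 measured cytochrome P450 genes was called higher (CYP71B22) and 1 lower (CYP71B6), 1 of 14 glutathione S-transferase genes was lower (GSTU20, -4.18e-04), 1 of 7 WRKY genes was lower (ZAP1, -1.27e-05) and 1 of 22 root peroxidase genes was higher (AT4G30170, 2.26e-04). Over all measured genes 5.63% were called higher and 5.91% lower. ZAP1 and AT4G30170 were each not called after quantile normalization, with the 6 arrays alone or in 7 of the 9 fits that left out 1 array, and CYP71B22 was not called in 3 of those 9 fits. None of the 16 mitochondrion-encoded genes was called by limma as deposited, and leaving out 1 array gave at most 2.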
